A study of Drosophila melanogaster with 9 samples.

Results

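The comparison described here set embryos of KahΔZnF directly against embryos of KahΔATG, the 2 Kah alleles whose RNA was sequenced, and so asked where the transcriptomes of these alleles differ from each other. It used 6 libraries, 3 of each mutant, of the 9 libraries in the series, and the 3 w1118 libraries are shown beside them on the same scale without entering the test. The authors deposited a table for each mutant, and 14306 genes are listed in both under the same identifier. Whole reads were recovered from the deposited values, the 6 mutant libraries were rescaled together, and the 10838 genes that reached a rescaled value of 10 in 3 or more of the 6 were tested. Values below are these rescaled reads, in the order of replicates 1, 2 and 3. They are not divided by gene length, so they compare libraries and not genes.

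All embryos were whole Drosophila melanogaster embryos collected between 5 and 16 h after egg laying. KahΔATG lacks most of exon 2 with the predicted start codon, and KahΔZnF carries an in-frame deletion of the part that encodes the zinc fingers. Both alleles were made with CRISPR/Cas9 in flies that express Cas9 under the vasa promoter, and their carriers were then crossed to flies with a balancer of the chromosome that carries Kah. w1118, labelled wild type, carries a white mutation and is not described as the strain that was edited, so allele and genetic background cannot be told apart. The methods describe 1 embryo collection per genotype for the 3 replicates, so genotype and collection, with its mix of stages, cannot be told apart either. The p-values therefore measure only the spread between these libraries.

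Kahuli (Kah) is a zinc finger transcription factor of the Snail/Scratch family, whose members bind DNA through C2H2 zinc fingers and are best known as repressors. In the embryo Kah is transcribed in the visceral and somatic mesoderm. The visceral mesoderm forms the muscle around the midgut, which later is divided by constrictions placed with the help of homeotic genes and of Dpp and Wg signals. Late embryogenesis is also the time when the epidermis secretes cuticle, neurons form synapses and muscles build sarcomeres, while the proliferation genes that the mother deposits and the early embryo transcribes fall.

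The recovered reads on the joined genes ranged from 17990088 to 19915502 per mutant library. A principal component analysis of the tested genes placed 72.7% of the variance on an axis that separated the mutants, with no overlap of libraries. Pearson's r between libraries across genes was 0.991 to 0.993 within a mutant and 0.962 to 0.975 between mutants. KahΔZnF replicate 1 had 8.67% of its reads on the mitochondrial genome, against 15.3% to 16.6% in the other 5 mutant libraries and 9.76% to 16.3% in w1118. The comparison was repeated without each library in turn, and the counts and calls that moved most are given beside the results.

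Kah itself was transcribed in both mutants and was lower in KahΔZnF. Kah occupies 582824-589274 of chromosome 3L in the BDGP6 assembly and is read from the minus strand, and no exon of another annotated gene overlaps its 4 exons. The values of Kah were 732, 653 and 731 in KahΔZnF against 1663, 1522 and 1582 in KahΔATG. Every KahΔATG library was higher than every KahΔZnF library. The w1118 libraries had 357, 345 and 357 for Kah. KahΔZnF therefore lay between w1118 and KahΔATG. Kah had a log2 fold change of -1.17 ± 0.08 (SE, adjusted p = 1.55e-06). The ends of the deletions are not given in the files, so the reads lost with the deleted parts are not corrected for, and the gene-level values cannot say how much intact transcript each allele makes.

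Of the 10838 genes tested, 514 were higher and 1512 were lower in KahΔZnF than in KahΔATG when the adjusted p was no more than 0.05 and the log2 fold change was 0.59 or larger in either direction. These are 4.74% and 14.0% of the genes tested. The test was limma's moderated test on log2(value + 1) with Benjamini-Hochberg adjustment. Most differences were modest: the called genes had a median log2 fold change of 0.78 among the higher and -0.84 among the lower, and 100 of the 2026 called genes reached a log2 fold change of 2 in either direction. The libraries of the mutants did not overlap for 98.3% of the called genes, but they also did not overlap for 59.9% of all genes tested. At an unadjusted p under 0.05 there were 6201 genes, or 57.2% of all genes tested. The excess of lower genes belongs to genes past the fold limit, because at the adjusted p alone 2687 genes were higher and 2819 lower, and the median log2 fold change of all genes was 0.01. Against a fold change of 1.5 as the null of the test, 80 genes remained higher and 238 lower. Fewer cells of a type and less RNA per cell cannot be told apart in these whole-embryo libraries.

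**Figure D1:**
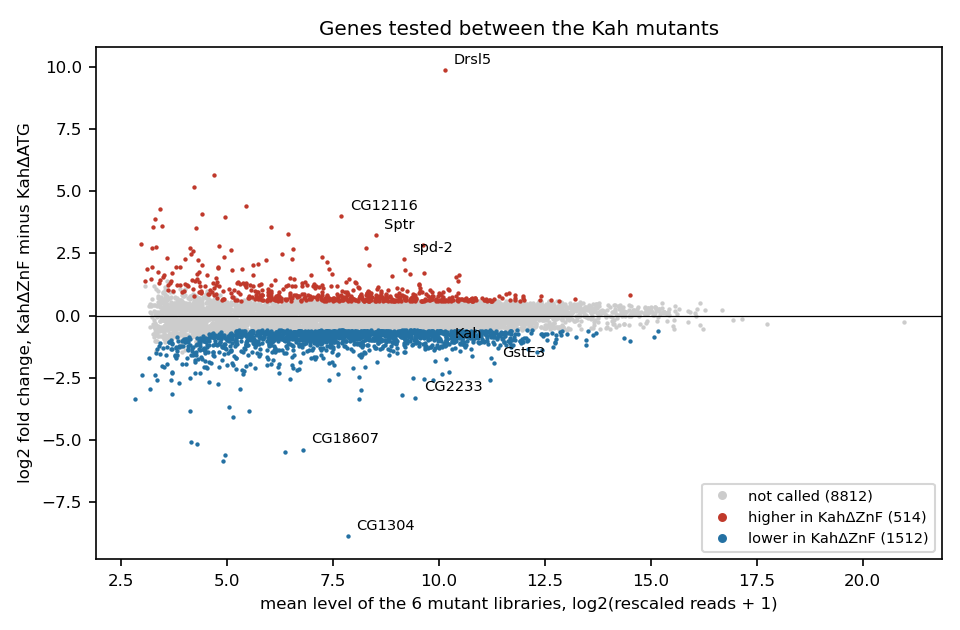
Log2 fold change of KahΔZnF against KahΔATG for the 10838 genes tested (y axis) against the mean rescaled level of the 6 mutant libraries as log2(value + 1) (x axis). Each point is a gene, in red where higher in KahΔZnF (514), in blue where lower (1512) and in grey where not called. Drsl5 and CG1304 stand farthest from 0.

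Among the called genes with separate libraries and a mean of at least 50 over the 6 mutant libraries, the largest increase in KahΔZnF was that of Drsl5, a member of the drosomycin-like family of antifungal peptides. KahΔZnF libraries had 2035, 2343 and 2391 for Drsl5, and KahΔATG libraries had 0, 1.04 and 5.89. Its transcripts were thus abundant in each KahΔZnF library and close to absent from KahΔATG, where 7 reads were counted over 3 libraries. Drsl5 was at 0.878, 0 and 0.951 in w1118. For Drsl5 the log2 fold change was 9.87 ± 0.50 (SE), with an adjusted p of 2.00e-07. Drsl5 reached a rescaled value of 10 only in KahΔZnF libraries, so it was tested through KahΔZnF alone and had to differ. Its p-value is therefore no separate support beside the levels. The ratio of the group means was 976, with a 95% counting interval of 459 to 2357.

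Sptr, which encodes sepiapterin reductase, the enzyme of the last step of tetrahydrobiopterin synthesis, and CG12116 are neighbours on the X chromosome. In KahΔATG Sptr was measured at 85.3, 66.8 and 56.0, and in KahΔZnF at 698, 651 and 629.7. Levels of CG12116 were 28.8, 18.8 and 22.6 in KahΔATG and 313, 413 and 447 in KahΔZnF. For both genes the KahΔZnF libraries were far above the KahΔATG libraries. For w1118 the values of Sptr were 64.1, 66.0 and 65.6. In w1118 CG12116 was at 488, 412 and 409. The w1118 libraries were therefore near KahΔATG for Sptr and near KahΔZnF for CG12116. By limma Sptr had a log2 fold change of 3.25 ± 0.15 (SE, adjusted p = 7.40e-08). This gave CG12116 a log2 fold change of 4.01 ± 0.19 (SE) at an adjusted p of 1.09e-07. The genes are 3004 bp apart with no other joined gene between them. Exons of Es2 overlap those of Sptr, and the strand setting of the counting is not stated.

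Other genes among the 10 with the largest increases above that level were Ugt37a1, a UDP-glycosyltransferase, blanks, a double-stranded RNA binding protein of the male germ line, and the less characterised genes CG32318, CG13465, CG8908, CG10859 and CG10013. blanks was at 523, 524 and 558 in KahΔZnF and at 72.0, 83.5 and 86.4 in KahΔATG. Between the mutants blanks differed by a log2 fold change of 2.72 ± 0.11 (SE, adjusted p = 4.64e-08). Its libraries were tight within each mutant. The values of Ugt37a1 were 182, 143 and 143 in KahΔZnF against 12.3, 16.7 and 15.7 in KahΔATG. Ugt37a1 had a log2 fold change of 3.30 ± 0.20 (SE, adjusted p = 1.00e-06). An annotated transposon insertion overlaps an exon of Ugt37a1. KahΔZnF libraries had 110.4, 134 and 112 for CG32318, and KahΔATG libraries had 13.4, 5.22 and 10.8. In KahΔATG CG13465 was measured at 132, 202 and 243, and in KahΔZnF at 938, 1595 and 1618. In CG13465 replicate 1 of KahΔZnF was below the other two and still above every KahΔATG library. Levels of CG8908 were 22.6, 26.1 and 25.5 in KahΔATG and 159, 154 and 172 in KahΔZnF. CG10859 was at 149, 102 and 147 in KahΔZnF and at 24.7, 23.0 and 19.6 in KahΔATG. The values of CG10013 were 299, 241 and 218 in KahΔZnF against 42.2, 53.2 and 51.1 in KahΔATG. Over these 5 genes the log2 fold change ran from 2.34 to 3.55, with the mutants separate in each.

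CG1304 was the gene most reduced in KahΔZnF above the same level. KahΔZnF libraries had 0 in all 3 libraries for CG1304, and KahΔATG libraries had 464, 438 and 484. No read was found in KahΔZnF, and against a floor of 3 reads per library the KahΔATG mean was at least 158-fold higher. The w1118 libraries had 0, 0.916 and 1.90 for CG1304. Expression above the floor was thus seen in KahΔATG and in neither of the other genotypes.

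Above that level CG33258 and CG18607 followed, the second of which is named AANATL4 in current annotation, for a likeness to arylalkylamine N-acetyltransferases. In KahΔATG CG33258 was measured at 161, 145 and 178, and in KahΔZnF at 0.905, 4.10 and 4.02. Levels of CG18607 were 162, 244 and 242 in KahΔATG and 5.43, 4.10 and 3.02 in KahΔZnF. For CG18607 the log2 fold change was -5.39 ± 0.27 (SE), with an adjusted p of 1.41e-07. CG33258 and CG18607 reached a rescaled value of 10 only in KahΔATG libraries, so both had to differ. The p-value is therefore no separate support beside the levels. Every KahΔATG library was far above every KahΔZnF library in both. The long noncoding RNA CR34335 and the protein-coding gene CG2233, both on the X chromosome, differed in another way. CR34335 was at 44.3, 58.5 and 43.3 in KahΔZnF and at 468, 399 and 651 in KahΔATG. The values of CG2233 were 137, 127 and 119.7 in KahΔZnF against 1253, 1377 and 1159 in KahΔATG. CG2233 was at 1060.2, 993 and 1028 in w1118. In both genes w1118 was near KahΔATG and KahΔZnF stood alone at the low end. By limma CR34335 had a log2 fold change of -3.33 ± 0.19 (SE, adjusted p = 4.17e-07). This gave CG2233 a log2 fold change of -3.29 ± 0.10 (SE) at an adjusted p of 4.09e-09.

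The other 5 of the 10 most reduced genes were CG7860, CG43349, CG31918, CG13060 and CG11893. KahΔZnF libraries had 87.7, 98.4 and 148 for CG7860, and KahΔATG libraries had 1106, 889 and 1001. Between the mutants CG7860 differed by a log2 fold change of -3.18 ± 0.17 (SE, adjusted p = 2.82e-07). In KahΔATG CG43349 was measured at 478, 487 and 559, and in KahΔZnF at 68.8, 53.3 and 65.4. In both genes the w1118 libraries lay between the mutants. Levels of CG31918 were 314, 289 and 267 in KahΔATG and 50.7, 64.6 and 32.2 in KahΔZnF. CG13060 was at 756, 688 and 587 in KahΔZnF and at 3492, 4207 and 4509 in KahΔATG. These genes had the same order of genotypes. The values of CG11893 were 261, 275 and 264 in KahΔZnF against 1404, 1728 and 1671 in KahΔATG. For w1118 the values of CG11893 were 44.8, 47.7 and 42.8. For CG11893 the order was w1118, KahΔZnF, KahΔATG, with no overlap. CG31918 is named Nepl3, for neprilysin-like, and shares exon sequence with His3.3A, and CG13060 shares exon sequence with a long noncoding RNA. The log2 fold change of these 5 genes ran from -3.18 to -2.58.

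**Figure D2:**
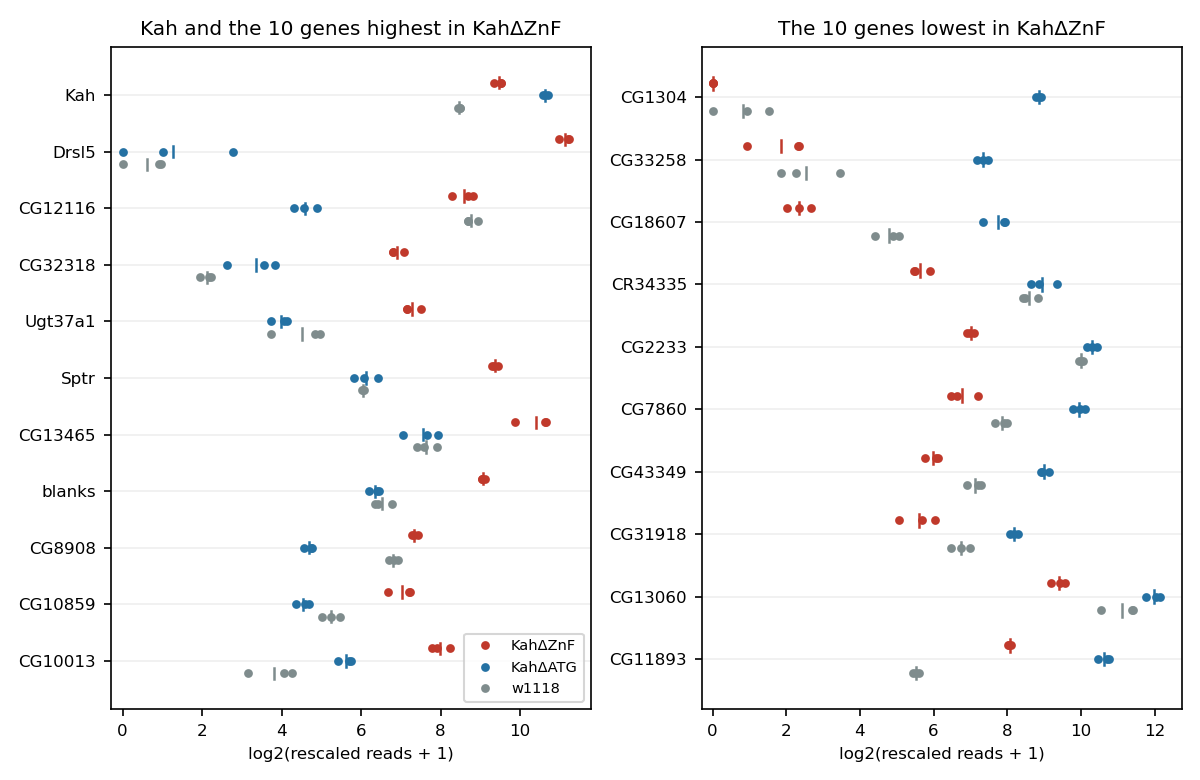
Level of Kah and of the 10 genes most increased (left) and the 10 most reduced (right) in KahΔZnF against KahΔATG at a mean of at least 50, as log2(rescaled reads + 1) on the x axis. Each point is 1 library, with 3 per genotype, and the short vertical line is the mean of the 3. The mutants do not overlap in any of these genes, while w1118 sits beside either mutant, between them or outside.

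Several genes that the study labels on its plots of each mutant against w1118 also differed between the mutants. mthl8 encodes a Methuselah-like receptor. KahΔZnF libraries had 102, 113 and 88.5 for mthl8, and KahΔATG libraries had 300.3, 318 and 260.2. In w1118 mthl8 was at 0 in all 3 libraries. mthl8 had a log2 fold change of -1.53 ± 0.13 (SE, adjusted p = 1.20e-05). CG33268 had the same arrangement, absent from w1118 and lower in KahΔZnF. In KahΔATG CG33268 was measured at 125, 97.0 and 129, and in KahΔZnF at 28.0, 32.8 and 28.2. For CG33268 the log2 fold change was -1.94 ± 0.19 (SE), with an adjusted p of 2.17e-05. Victoria, a Turandot family stress gene, fell by 0.98 on the log2 scale with an SE of 0.21 and an adjusted p of 0.00268 in the limma test. CG34267 was higher in KahΔZnF. Levels of CG34267 were 36.0, 60.5 and 97.2 in KahΔATG and 184, 177 and 203 in KahΔZnF. The w1118 libraries had 701, 905 and 842 for CG34267. By limma CG34267 had a log2 fold change of 1.64 ± 0.27 (SE, adjusted p = 5.98e-04).

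For other labelled genes the mutants differed by less than the fold limit. S-Lap1, a leucyl aminopeptidase of sperm, was near 0 in w1118. S-Lap1 was at 1154, 1490.0 and 1528 in KahΔZnF and at 1079.7, 851 and 967 in KahΔATG. This gave S-Lap1 a log2 fold change of 0.52 ± 0.12 (SE) at an adjusted p of 0.00318. Lasp encodes an actin-binding protein of muscle. The values of Lasp were 369, 407 and 388 in KahΔZnF against 521, 477 and 479 in KahΔATG. Between the mutants Lasp differed by a log2 fold change of -0.34 ± 0.09 (SE, adjusted p = 0.00709). Neither gene passed the fold limit, but S-Lap1 did without KahΔZnF replicate 1, at 0.65, or without KahΔATG replicate 1, at 0.60. Or71a and CG5724 were too low in both mutants to be tested, at 0.982 to 6.04 rescaled reads for Or71a and 3.93 to 14.5 for CG5724.

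More labelled genes were at or near 0 in 1 mutant. Or19b, an odorant receptor gene, had no read in KahΔZnF. KahΔZnF libraries had 0 in all 3 libraries for Or19b, and KahΔATG libraries had 51.4, 19.8 and 40.3. The KahΔATG mean was at least 12.7-fold higher than a floor of 3 reads per library. CG15128 had no read in KahΔATG. In KahΔATG CG15128 was measured at 0 in all 3 libraries, and in KahΔZnF at 38.9, 56.4 and 53.3. The KahΔZnF mean was at least 16.2-fold above that floor. LysX, a lysozyme, had 2 reads in all in KahΔATG. Levels of LysX were 0, 2.09 and 0 in KahΔATG and 17.2, 18.5 and 13.1 in KahΔZnF. The ratio of means was 23.4, with a 95% counting interval of 6.30 to 203. The noncoding CR44316 had 1 read in KahΔZnF against 50.1 to 72.0 rescaled reads in KahΔATG, and the ratio of KahΔZnF to KahΔATG had a 95% counting interval of 0.00014 to 0.031. All counting intervals cover counting error only.

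Among the lists examined, cuticle protein genes had the most members that fell. They encode the structural proteins that the epidermis secretes with chitin at the end of embryogenesis. Of the 103 cuticle protein genes tested of 127 listed, 73 were lower and 1 was higher in KahΔZnF, and the median log2 fold change of the list was -0.85. Of all genes tested 14.0% were lower. The 1 that rose was Cpr97Eb. The call of Cpr97Eb was lost without KahΔZnF replicate 2 or KahΔATG replicate 3. Edg91 was at 103, 128 and 58.3 in KahΔZnF and at 351, 402 and 448 in KahΔATG. The values of Ccp84Ae were 875, 805 and 677 in KahΔZnF against 1751, 2128 and 2373 in KahΔATG. KahΔZnF libraries had 53.4, 80.0 and 52.3 for Lcp65Aa, and KahΔATG libraries had 85.3, 175 and 277. In each of these 3 genes every KahΔZnF library was below every KahΔATG library. Edg91 had a log2 fold change of -2.10 ± 0.23 (SE, adjusted p = 4.91e-05). For Ccp84Ae the log2 fold change was -1.40 ± 0.12 (SE), with an adjusted p of 8.74e-06. By limma Lcp65Aa had a log2 fold change of -1.39 ± 0.34 (SE, adjusted p = 0.00538). Ccp84Af, from the same gene cluster as Ccp84Ae, had lower levels throughout. In KahΔATG Ccp84Af was measured at 57.6, 64.7 and 79.5, and in KahΔZnF at 17.2, 26.7 and 21.1. This gave Ccp84Af a log2 fold change of -1.60 ± 0.24 (SE) at an adjusted p of 2.71e-04. Near-identical pairs such as Lcp65Ab1 and Lcp65Ab2 can share reads, and their separate values are uncertain. Tested against a fold change of 1.5, 19 of the cuticle genes were called lower.

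Genes of chitin synthesis and tanning fell in part. Of the 23 genes of chitin synthesis and tanning tested, 5 were lower and 0 were higher in KahΔZnF, and the median log2 fold change of the list was -0.34. The 5 are 21.7% of those tested, against 14.0% of all genes. The 5 were ebony (e), yellow (y), black (b), pale (ple) and Dopa decarboxylase (Ddc), all enzymes or proteins that act in pigmentation and sclerotisation of cuticle, and ple and Ddc also serve amine synthesis in neurons. Levels of e were 356, 473 and 506 in KahΔATG and 185, 227 and 168 in KahΔZnF. Between the mutants e differed by a log2 fold change of -1.19 ± 0.15 (SE, adjusted p = 1.02e-04). ebony joins beta-alanine to dopamine, and pale and Ddc act before it. ple was at 468, 505 and 424 in KahΔZnF and at 791, 956 and 983 in KahΔATG. The values of Ddc were 658, 707 and 625 in KahΔZnF against 1143, 1252 and 1302 in KahΔATG. Ddc had a log2 fold change of -0.89 ± 0.08 (SE, adjusted p = 1.45e-05). The libraries of the mutants were separate in all of these. Chitin synthase and the other members were not called.

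Genes of synapses and excitability fell as well. Of the 22 genes of synapses and excitability tested, 13 were lower and 0 were higher in KahΔZnF, and the median log2 fold change of the list was -0.65. The 13 are 59.1% of those tested, against 14.0% of all genes. KahΔZnF libraries had 1067, 842 and 670.0 for para, and KahΔATG libraries had 1519.8, 2002 and 1776. For para the log2 fold change was -1.05 ± 0.15 (SE), with an adjusted p of 1.98e-04. para encodes the voltage-gated sodium channel. Rdl, a GABA receptor subunit, and Sh, a potassium channel, had the next largest changes. In KahΔATG Rdl was measured at 1422, 1945 and 1727, and in KahΔZnF at 993, 919.8 and 750.5. Levels of Sh were 1169, 1433 and 1250.0 in KahΔATG and 787, 741 and 556 in KahΔZnF. By limma Sh had a log2 fold change of -0.90 ± 0.12 (SE, adjusted p = 1.88e-04). Snap25, a SNARE protein of synaptic vesicle fusion, was less abundant. Snap25 was at 95.9, 121 and 137 in KahΔZnF and at 207, 239.9 and 196 in KahΔATG. This gave Snap25 a log2 fold change of -0.87 ± 0.15 (SE) at an adjusted p of 7.59e-04. The remaining called members were Rim, Gad1, Cha, nSyb, Syt1, brp, eag, futsch and nrv3. The calls of brp and eag were lost without KahΔZnF replicate 3. Without KahΔZnF replicate 3 or KahΔATG replicate 2, futsch was not called. The call of nrv3 was lost without KahΔZnF replicate 3, KahΔATG replicate 2 or KahΔATG replicate 3. Exons of Cha overlap those of VAChT at the cholinergic locus. Of the 11 glial genes tested, 1 was lower, or 9.09%, against 14.0% of all genes. Estimates of the glial list were above 0 for 5 genes and below 0 for 6, with a median of -0.02. The 1 that fell was Eaat1, a glutamate transporter. The values of Eaat1 were 782, 839 and 853 in KahΔZnF against 1353, 1550.2 and 1570.1 in KahΔATG. Between the mutants Eaat1 differed by a log2 fold change of -0.85 ± 0.08 (SE, adjusted p = 1.83e-05).

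Sarcomere and muscle genes were called lower about as often as all genes. Of the 26 sarcomere and muscle genes tested, 4 were lower and 0 were higher in KahΔZnF, and the median log2 fold change of the list was -0.49. The 4 are 15.4% of the list, against 14.0% of all genes tested. Unc-89, the obscurin of the M-line, changed most. KahΔZnF libraries had 1993, 1489 and 1263 for Unc-89, and KahΔATG libraries had 2198, 3418 and 3143. Unc-89 had a log2 fold change of -0.88 ± 0.17 (SE, adjusted p = 0.00147). The other 3 called were Zasp66, a Z-disc protein, Msp300, which links nuclei to the cytoskeleton, and Mlc2, the myosin regulatory light chain. The call of Zasp66 was lost without KahΔATG replicate 3. Without KahΔZnF replicate 3 or KahΔATG replicate 2, Msp300 was not called. The call of Mlc2 was lost without KahΔZnF replicate 3, KahΔATG replicate 2 or KahΔATG replicate 3. In KahΔATG Mlc2 was measured at 39652, 46622 and 48274, and in KahΔZnF at 29738, 30304 and 27858. For Mlc2 the log2 fold change was -0.61 ± 0.09 (SE), with an adjusted p of 3.02e-04. The estimates of 25 of the 26 were below 0, and the number called moved with the libraries used: 12 were called lower without KahΔZnF replicate 1, 12 without KahΔATG replicate 1, and 2 without KahΔZnF replicate 3, KahΔATG replicate 2 or KahΔATG replicate 3.

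Basement membrane genes fell in part. Of the 10 basement membrane genes tested, 4 were lower and 0 were higher in KahΔZnF, and the median log2 fold change of the list was -0.47. The 4 are 40.0% of those tested, against 14.0% of all genes. The 4 that fell were vkg and Cg25C, the type IV collagen chains, BM-40-SPARC, a collagen-binding protein, and trol, the perlecan. The call of trol was lost without KahΔZnF replicate 3. Levels of vkg were 25694, 27867 and 28785 in KahΔATG and 16934, 14849.7 and 13105 in KahΔZnF. By limma vkg had a log2 fold change of -0.88 ± 0.10 (SE, adjusted p = 4.43e-05). The vkg libraries of each mutant were close together at high read numbers. BM-40-SPARC was at 4530.3, 4637 and 4213 in KahΔZnF and at 6888, 7758 and 7772 in KahΔATG. This gave BM-40-SPARC a log2 fold change of -0.74 ± 0.07 (SE) at an adjusted p of 2.28e-05. Collagen IV is made mainly by hemocytes and fat body. Of the 16 hemocyte genes tested, 5 were lower and 0 were higher in KahΔZnF, and the median log2 fold change of the list was -0.12. The 5 are 31.2% of those tested, against 14.0% of all genes. These 5 were eater and Sr-CI, receptors for microbes, Hml, a clotting protein, and the prophenoloxidases PPO1 and PPO2. The call of eater was lost without KahΔZnF replicate 2, KahΔATG replicate 2 or KahΔATG replicate 3. Without KahΔATG replicate 2, Sr-CI was not called. The call of PPO1 was lost without KahΔATG replicate 1. Without KahΔZnF replicate 3 or KahΔATG replicate 1, PPO2 was not called. The values of Hml were 284, 283 and 211 in KahΔZnF against 344, 544 and 494 in KahΔATG. Between the mutants Hml differed by a log2 fold change of -0.81 ± 0.17 (SE, adjusted p = 0.00211). Hml is a marker of plasmatocytes and PPO1 of crystal cells, but the hemocyte list did not move in 1 direction. Its estimates were above 0 for 6 genes and below 0 for 10. At an unadjusted p under 0.05, 9 of the 16 differed, against 57.2% of all genes. KahΔZnF libraries had 1271, 1164 and 1092 for PPO1, and KahΔATG libraries had 2029, 1748 and 1749. PPO1 had a log2 fold change of -0.65 ± 0.08 (SE, adjusted p = 1.30e-04). For PPO1 the w1118 mean was below both mutants, while for the others it was above both. The count was 3 without KahΔATG replicate 1 or replicate 2. Of the 5 fat body genes tested of 9 listed, 2 were lower and 1 was higher in KahΔZnF, and the median log2 fold change of the list was -0.03. These are 40.0% and 20.0% of those tested, against 14.0% and 4.74% of all genes. In KahΔATG Lsp1gamma was measured at 60.7, 78.2 and 55.0, and in KahΔZnF at 15.4, 7.18 and 21.1. Levels of Adh were 42.2, 32.3 and 34.4 in KahΔATG and 14.5, 10.3 and 13.1 in KahΔZnF. Fbp2 was at 24.4, 25.6 and 29.2 in KahΔZnF and at 8.23, 12.5 and 7.86 in KahΔATG. The larval serum protein gene Lsp1gamma and the alcohol dehydrogenase gene Adh were lower, and Fbp2 was higher, all at low read numbers.

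**Figure D3:**
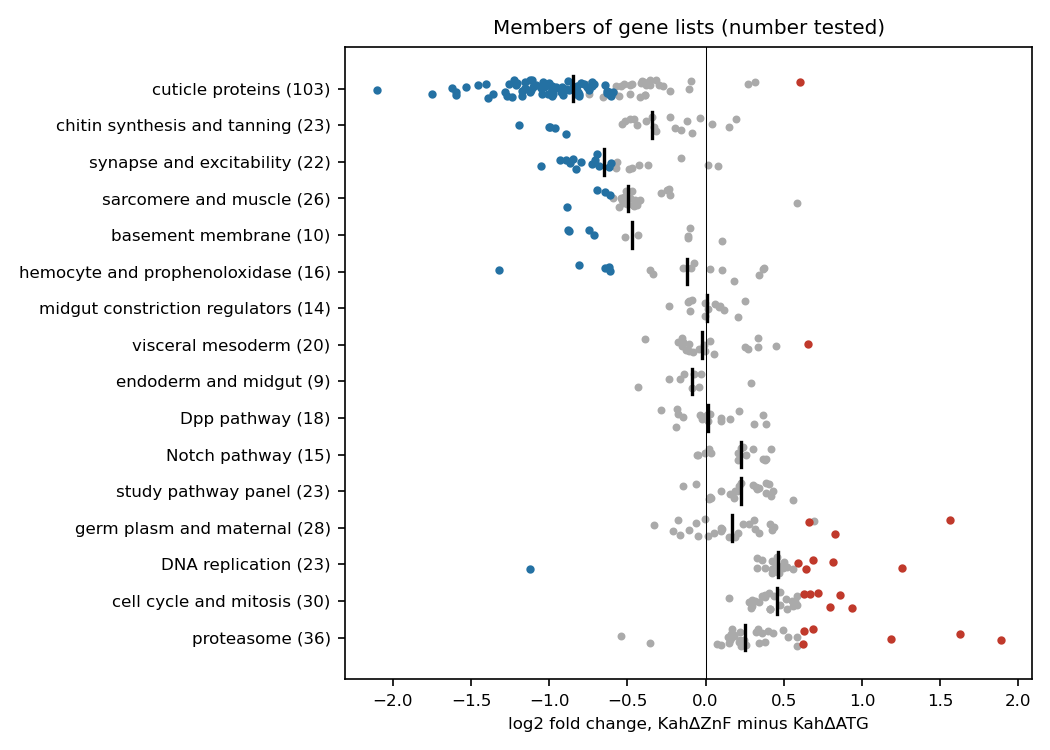
Log2 fold change of KahΔZnF against KahΔATG (x axis) for the tested members of 16 gene lists (y axis, number tested in brackets). Points are genes, blue where called lower, red where called higher and grey where not called, and the black line is the median of the list. Medians run from -0.85 for cuticle proteins to 0.46 for DNA replication and for cell cycle and mitosis.

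The genes that rose included parts of the machinery of cell division. Of the 30 genes of the cell cycle and mitosis tested, 0 were lower and 6 were higher in KahΔZnF, and the median log2 fold change of the list was 0.46. The 6 are 20.0% of those tested, against 4.74% of all genes. All 30 estimates were above 0. The values of cid were 156, 242 and 198 in KahΔZnF against 115, 76.2 and 119 in KahΔATG. KahΔZnF libraries had 462, 580.4 and 625 for Ndc80, and KahΔATG libraries had 349.6, 269 and 298. cid encodes the centromeric histone, Ndc80 a kinetochore protein and borr a subunit of the chromosomal passenger complex. In KahΔATG borr was measured at 3165, 2860.5 and 2876, and in KahΔZnF at 4930.1, 5158 and 5363. For borr the log2 fold change was 0.80 ± 0.07 (SE), with an adjusted p of 9.40e-06. The mutants did not overlap in these. Levels of aurA were 324, 252 and 292 in KahΔATG and 423, 491 and 517 in KahΔZnF. By limma aurA had a log2 fold change of 0.72 ± 0.12 (SE, adjusted p = 4.71e-04). The kinase genes aurA and aurB and the condensin gene Cap-D2 completed the 6. The call of Cap-D2 was lost without KahΔZnF replicate 1 or KahΔATG replicate 3. Without KahΔZnF replicate 2, 11 of the 30 were called.

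Genes of DNA replication had a similar distribution. Of the 23 genes of DNA replication tested, 1 was lower and 5 were higher in KahΔZnF, and the median log2 fold change of the list was 0.46. These are 4.35% and 21.7% of those tested, against 14.0% and 4.74% of all genes. The higher 5 were Psf1 and Psf2 of the GINS complex, Orc2 and Orc5 of the origin recognition complex, and Mcm3 of the replicative helicase. The call of Orc2 was lost without KahΔATG replicate 3. Without KahΔZnF replicate 3 or KahΔATG replicate 2, Mcm3 was not called. Psf1 was at 202, 170.2 and 181 in KahΔZnF and at 81.2, 87.6 and 62.8 in KahΔATG. This gave Psf1 a log2 fold change of 1.25 ± 0.16 (SE) at an adjusted p of 1.01e-04. The values of Orc5 were 301, 279 and 284 in KahΔZnF against 204, 143 and 149 in KahΔATG. The exception was Orc1, the regulated subunit of the origin recognition complex, which was lower. KahΔZnF libraries had 807, 746 and 721 for Orc1, and KahΔATG libraries had 1712, 1663 and 1574. Orc1 was at 381, 335 and 313 in w1118. Between the mutants Orc1 differed by a log2 fold change of -1.12 ± 0.07 (SE, adjusted p = 1.62e-06). Both mutants were above w1118 for Orc1, and KahΔATG was the higher.

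Among genes of the germ plasm and of maternal supply, 3 of 28 tested were higher and 0 lower, with a median log2 fold change of 0.17. The 3 are 10.7% of those tested, against 4.74% of all genes. In KahΔATG swa was measured at 737, 721 and 587, and in KahΔZnF at 1913, 2015 and 2083. For w1118 the values of swa were 215, 186 and 157. swa had a log2 fold change of 1.56 ± 0.09 (SE, adjusted p = 6.77e-07). swa encodes swallow, which anchors bicoid RNA in the oocyte, and it was the most changed of the list. wisp, a poly(A) polymerase of the egg, and AGO3, an Argonaute of the piRNA pathway, were the other two. The call of AGO3 was lost without KahΔATG replicate 3. Levels of wisp were 702, 877 and 699 in KahΔATG and 1538, 1308 and 1207 in KahΔZnF. For wisp the log2 fold change was 0.83 ± 0.11 (SE), with an adjusted p of 1.45e-04. The count was 5 without KahΔZnF replicate 3. Of the 36 proteasome genes tested of 43 listed, 0 were lower and 6 were higher in KahΔZnF, and the median log2 fold change of the list was 0.25. The 6 are 16.7% of those tested, against 4.74% of all genes. Prosalpha3, Prosalpha4 and Prosalpha5 encode core particle subunits, while Rpt3R and Rpt6R are copies of regulatory particle ATPases that are expressed mainly in testis, and CG30382 is the remaining called member. The calls of Prosalpha3 and Prosalpha5 were lost without KahΔZnF replicate 2, KahΔZnF replicate 3 or KahΔATG replicate 2. Without KahΔZnF replicate 3, Rpt6R was not called. The call of CG30382 was lost without KahΔZnF replicate 2. Rpt3R was at 80.5, 66.7 and 70.4 in KahΔZnF and at 21.6, 24.0 and 22.6 in KahΔATG. By limma Rpt3R had a log2 fold change of 1.63 ± 0.20 (SE, adjusted p = 8.95e-05). Prosalpha4 was more abundant and had a smaller change. The values of Prosalpha4 were 1980.2, 2108 and 2345 in KahΔZnF against 1394, 1353 and 1248 in KahΔATG. This gave Prosalpha4 a log2 fold change of 0.68 ± 0.08 (SE) at an adjusted p of 6.92e-05. Without KahΔZnF replicate 2 or KahΔZnF replicate 3, 3 proteasome genes were called.

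Both alleles disturb the midgut constrictions, and the known regulators of that process were near level. Of the 14 regulators of midgut constriction tested, 0 were lower and 0 were higher in KahΔZnF, and the median log2 fold change of the list was 0.01. Of all genes tested 14.0% were lower and 4.74% higher. Ubx and Antp, homeotic genes that place constrictions, had nearly equal levels in both mutants. KahΔZnF libraries had 1365, 1346 and 1423 for Ubx, and KahΔATG libraries had 1312, 1379 and 1281. In KahΔATG Antp was measured at 1570.2, 1634 and 1582, and in KahΔZnF at 1559.6, 1459 and 1483. Levels of dpp were 648, 692 and 674 in KahΔATG and 691, 689 and 659 in KahΔZnF. The limma estimates were 0.06 ± 0.07 (SE) for Ubx, -0.09 ± 0.07 (SE) for Antp and 0.02 ± 0.07 (SE) for dpp. No member was called by limma, edgeR or DESeq2, and 2 of the 14 had an unadjusted p under 0.05, against 57.2% of all genes tested. Estimates over the 14 genes ran from -0.23 for lab to 0.25 for wg. A small change in a few cells would not be detectable in whole embryos.

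Visceral mesoderm genes were nearly level. Of the 20 visceral mesoderm genes tested, 0 were lower and 1 was higher in KahΔZnF, and the median log2 fold change of the list was -0.03. The 1 higher is 5.00% of those tested, near the 4.74% of all genes, while 14.0% of all genes were lower. At an unadjusted p under 0.05, 7 of the 20 differed, against 57.2% of all genes. The 1 that rose was smt3, which encodes SUMO. smt3 was at 10566, 11480.0 and 12862 in KahΔZnF and at 8035, 6819 and 7253 in KahΔATG. Between the mutants smt3 differed by a log2 fold change of 0.66 ± 0.09 (SE, adjusted p = 1.46e-04). The call was lost without KahΔZnF replicate 3, and 2 genes of the list were higher without KahΔATG replicate 1. bap and bin, which specify the visceral mesoderm, and Hand and org-1, markers of its founder cells, were measured at similar levels in both mutants. The values of bap were 140.2, 133 and 160.0 in KahΔZnF against 114, 115 and 135 in KahΔATG. KahΔZnF libraries had 212, 219 and 226 for bin, and KahΔATG libraries had 216, 256 and 239. In KahΔATG Fas3 was measured at 7610.3, 7689 and 7805, and in KahΔZnF at 7836, 7675 and 7537. Fas3 marks the visceral muscle, and its mutant libraries overlapped. Of the 9 endoderm and midgut genes tested, 0 were lower and 0 were higher in KahΔZnF, and the median log2 fold change of the list was -0.09. The tools edgeR and DESeq2 gave 0 there too, and 3 of the 9 had an unadjusted p under 0.05, against 57.2% of all genes. GATAe, an endodermal GATA factor, had the largest estimate. Levels of GATAe were 1235, 1218 and 1209.7 in KahΔATG and 1002, 891 and 826 in KahΔZnF. GATAe had a log2 fold change of -0.43 ± 0.08 (SE, adjusted p = 0.00117). It did not pass the fold limit.

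In the Snail/Scratch family Kah was the only one of 6 genes called. wor, a neuroblast gene, had the next largest estimate, at 0.44 ± 0.10 (SE), and sna at 0.06 ± 0.08 (SE) and esg at 0.06 ± 0.08 (SE) were near 0. wor was at 609.7, 653 and 748 in KahΔZnF and at 541, 479 and 464 in KahΔATG. The pathway genes drawn in the study's heat map were chosen there for differing from w1118, and 0 of the 23 were called here by limma, edgeR or DESeq2, with a median of 0.23. At an unadjusted p under 0.05 16 of the 23 differed, as 57.2% of all genes did. Without KahΔZnF replicate 1, KahΔZnF replicate 2 or KahΔATG replicate 1, 1 of the 23 was called higher. Dl, the Notch ligand, was one of them. The values of Dl were 3119, 3141 and 3475 in KahΔZnF against 2639.6, 2375 and 2422 in KahΔATG. In w1118 Dl was at 1548, 1497 and 1309. For Dl the log2 fold change was 0.39 ± 0.07 (SE), with an adjusted p of 0.00103. Both mutants were above w1118 by more than they differed from each other.

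Genes of the signalling pathways of the embryo rarely passed the fold limit, which 4.74% of all genes passed as higher and 14.0% as lower. Estimates were above 0 for 12 of 12 Hedgehog genes and 14 of 16 Wingless genes. They were above 0 for 12 of 15 Notch, 15 of 19 EGFR and Ras, 11 of 18 Dpp and 5 of 13 Toll genes. In the Dpp list 0 of 18 tested, in the Notch list 0 of 15, in the EGFR and Ras list 0 of 19 and in the Toll dorsoventral list 0 of 13 passed in either direction by limma, edgeR or DESeq2. At an unadjusted p under 0.05 there were 7, 10, 4 and 7, in the same order, against 57.2% of all genes. A Toll gene was lower without KahΔZnF replicate 1, and an EGFR and Ras gene without KahΔZnF replicate 2. Of the Wingless list 1 of 16 was higher, Apc2, a member of the beta-catenin destruction complex. KahΔZnF libraries had 1459, 1223 and 1306 for Apc2, and KahΔATG libraries had 741, 718 and 679. By limma Apc2 had a log2 fold change of 0.90 ± 0.08 (SE, adjusted p = 1.64e-05). Of the Hedgehog list 1 of 12 was higher, rasp, the acyltransferase that modifies Hedgehog. In KahΔATG rasp was measured at 147, 189.9 and 186, and in KahΔZnF at 306, 401 and 433. Exons of Asciz overlap those of rasp. Of the Enhancer of split and Bearded genes, targets of Notch signalling, Tom was higher and BobA lower, of 14 tested. Levels of BobA were 1739, 1265 and 1529.8 in KahΔATG and 362, 401 and 500.0 in KahΔZnF. This gave BobA a log2 fold change of -1.84 ± 0.13 (SE) at an adjusted p of 3.02e-06. BobA lies in the Bearded complex of small Notch antagonists, as does Tom. Tom was at 5939.7, 7067 and 7548 in KahΔZnF and at 4474, 3527 and 4007 in KahΔATG. The number called higher was 4 of the 14 without KahΔATG replicate 1 and 2 without KahΔZnF replicate 1 or replicate 2.

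Immune genes moved in opposite directions. Of 16 antimicrobial peptide genes listed 9 passed the filter on low values, and 3 of these were higher and 6 lower, against 4.74% and 14.0% of all genes. A gene that passed only through its level in 1 mutant had to differ, so this count has no weight of its own. Besides Drsl5, its relatives Drs and Drsl2 were higher. The values of Drs were 15.4, 11.3 and 14.1 in KahΔZnF against 4.11, 4.17 and 0.982 in KahΔATG. KahΔZnF libraries had 11.8, 13.3 and 13.1 for Drsl2, and KahΔATG libraries had 2.06, 1.04 and 0. The w1118 libraries had 0, 0.916 and 2.85 for Drsl2. These 2 were below 20 rescaled reads in every mutant library. The 6 that were lower were Dro, Dpt, AttA, DptB, CecC and AttB, peptides that act mainly on Gram-negative bacteria. The call of AttB was lost without KahΔZnF replicate 2 or KahΔATG replicate 1. In KahΔATG DptB was measured at 133, 135 and 149, and in KahΔZnF at 29.9, 64.6 and 40.2. DptB was at 0, 0.916 and 1.90 in w1118. Between the mutants DptB differed by a log2 fold change of -1.68 ± 0.24 (SE, adjusted p = 2.26e-04). The KahΔZnF libraries lay between w1118 and KahΔATG. Levels of Dpt were 62.7, 86.6 and 55.0 in KahΔATG and 9.05, 12.3 and 16.1 in KahΔZnF. Dro was at 4.52, 4.10 and 4.02 in KahΔZnF and at 30.8, 31.3 and 24.5 in KahΔATG. In Dpt and Dro the groups did not overlap, and the w1118 mean was the lowest for each of the 6 genes. Drsl5 and Drsl2 lie 2099 bp apart on chromosome 3L, with 1 joined gene between them.

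**Figure D4:**
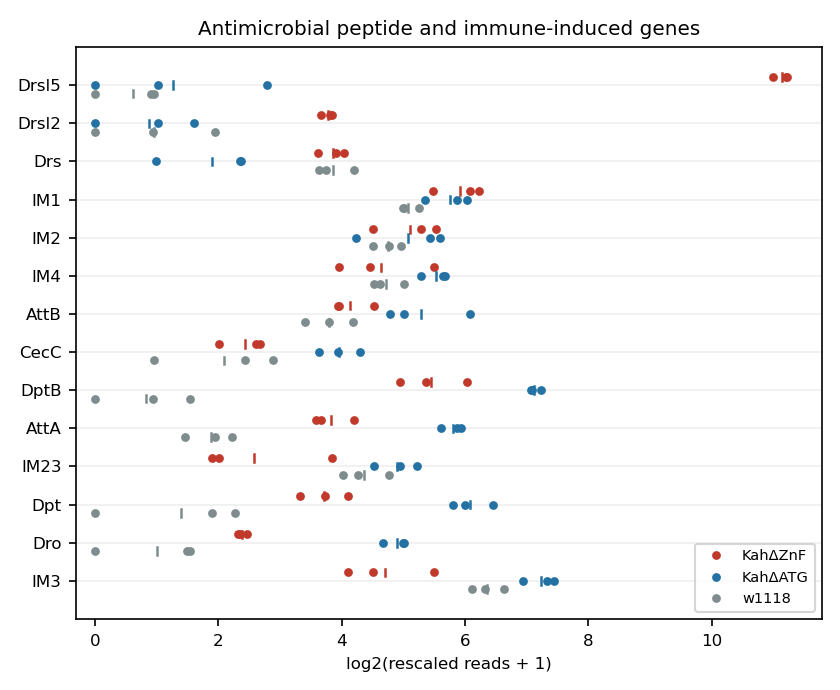
Levels of 9 antimicrobial peptide genes and 5 immune-induced (IM) genes as log2(rescaled reads + 1) on the x axis. Each point is a library, 3 per genotype, the vertical line is the mean, and genes are ordered by log2 fold change. Drsl5, Drsl2 and Drs are higher in KahΔZnF, IM1 and IM2 overlap, and the genes from IM4 down are lower, with overlapping libraries in IM4.

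Digestive enzyme genes were divided too. Of the 38 digestive enzyme genes tested of 46 listed, 11 were lower and 6 were higher in KahΔZnF, and the median log2 fold change of the list was -0.25. These are 28.9% and 15.8% of those tested, against 14.0% and 4.74% of all genes. LysX, among the 6, passed the filter on low values through KahΔZnF alone and so had to differ. The values of Jon25Biii were 864, 925 and 1095 in KahΔZnF against 321, 325 and 267 in KahΔATG. For w1118 the values of Jon25Biii were 1542, 1158 and 1158. Jon25Biii had a log2 fold change of 1.65 ± 0.11 (SE, adjusted p = 1.83e-06). Jon25Biii and Jon44E encode serine proteases of the gut, and Jon44E was lower. KahΔZnF libraries had 22.6, 27.7 and 27.2 for Jon44E, and KahΔATG libraries had 106, 113 and 89.4. For Jon44E the log2 fold change was -1.95 ± 0.19 (SE), with an adjusted p of 2.44e-05. The trypsin genes lambdaTry and zetaTry were lower. In KahΔATG lambdaTry was measured at 561, 531 and 621, and in KahΔZnF at 185, 265 and 243. By limma lambdaTry had a log2 fold change of -1.32 ± 0.13 (SE, adjusted p = 2.83e-05). In the eye pigment list, white (w), an ABC transporter for pigment precursors, was higher. Levels of w were 2.06, 6.26 and 4.91 in KahΔATG and 35.3, 27.7 and 28.2 in KahΔZnF. As w passed the filter on low values through KahΔZnF alone, its call has no weight in the count of that list. In w1118 w was at 4.39, 1.83 and 4.76. The w1118 strain carries a mutation of this gene, and KahΔATG was at its level. Hn, phenylalanine hydroxylase, and Pu, GTP cyclohydrolase, were lower, and car was higher, of 16 tested. The call of car was lost without KahΔATG replicate 2 or KahΔATG replicate 3.

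Chemoreceptor genes, of which 19 passed the filter out of 137, gave 1 higher and 3 lower, or 5.26% and 15.8% of those tested, against 4.74% and 14.0% of all genes. The higher call was lost without any 1 of KahΔZnF replicates 2 and 3 and KahΔATG replicates 1 and 2, and 2 genes were higher without KahΔZnF replicate 1. Or19b, described above, and Ir7g passed the filter through KahΔATG alone. Ir7g was at 4.52, 7.18 and 7.04 in KahΔZnF and at 50.4, 51.1 and 39.3 in KahΔATG. Of the Methuselah-like receptors 3 of 11 tested were lower, mthl4, mthl8 and mthl13. The call of mthl13 was lost without KahΔZnF replicate 3, KahΔATG replicate 1, KahΔATG replicate 2 or KahΔATG replicate 3. In the ecdysone list Eip74EF, an ETS factor induced by the hormone, was lower and spo, an enzyme of its synthesis, was higher, of 22 tested. Without KahΔZnF replicate 1, 2 genes of that list were lower. The values of Eip74EF were 939.9, 792 and 793 in KahΔZnF against 1607, 1834 and 1888 in KahΔATG. This gave Eip74EF a log2 fold change of -1.08 ± 0.09 (SE) at an adjusted p of 8.74e-06. sisA, an X-linked activator of Sex lethal in the early embryo, was the 1 of 13 sex and dosage compensation genes called. KahΔZnF libraries had 163, 140.5 and 195 for sisA, and KahΔATG libraries had 80.2, 60.5 and 68.7. Between the mutants sisA differed by a log2 fold change of 1.24 ± 0.17 (SE, adjusted p = 1.65e-04). hb was the 1 called of 16 gap and pair-rule genes, and its call was lost without KahΔZnF replicate 1, KahΔZnF replicate 3 or KahΔATG replicate 3. Another gene of that list was lower without KahΔZnF replicate 1. Of 15 neuroblast and proneural genes ac and sc were higher and pdm3 lower. The call of ac was lost without KahΔZnF replicate 2, KahΔZnF replicate 3, KahΔATG replicate 2 or KahΔATG replicate 3. Without KahΔATG replicate 3, sc was not called. Sur was the 1 called of 12 cardiac genes, lower, and Osi2 the 1 called of 17 Osiris genes, lower. The call of Sur was lost without KahΔZnF replicate 3. A cardiac gene was higher without KahΔATG replicate 1.

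Housekeeping groups other than the proteasome, and some tissue lists, had few calls. Of all genes tested 4.74% were higher and 14.0% lower. Of the 88 cytosolic ribosomal protein genes tested, RpS5b was higher and RpL22-like lower, or 1.14% each. Estimates were above 0 for 80 of the 88, with a median of 0.13. The call of RpS5b was lost without KahΔZnF replicate 3 or KahΔATG replicate 2. Without KahΔZnF replicate 2, KahΔZnF replicate 3, KahΔATG replicate 1, KahΔATG replicate 2 or KahΔATG replicate 3, RpL22-like was not called. Without KahΔZnF replicate 1, 3 of these genes were higher. Of the 72 mitochondrial ribosomal protein genes 1 was higher and 1 lower, mRpS28 and mRpS31. The call of mRpS28 was lost without KahΔZnF replicate 2, KahΔATG replicate 2 or KahΔATG replicate 3. Without KahΔZnF replicate 1, 2 of these were higher. In KahΔATG mRpS31 was measured at 958, 959.8 and 959, and in KahΔZnF at 493, 548 and 528. The nuclear genes of oxidative phosphorylation gave 0 calls among 66 by limma, edgeR or DESeq2, and 29 had an unadjusted p under 0.05, against 57.2% of all genes. There was 1 lower without any 1 of the KahΔZnF replicates or without KahΔATG replicate 2, and 1 higher without KahΔZnF replicate 1. Of the 13 heat shock genes Hsp67Bc was the 1 called, lower. No gene was called by limma in the lists for glycolysis (13 tested), apoptosis (10), trachea (13), septate junctions (15), salivary gland (8), somatic muscle identity (12) and Polycomb and Trithorax (20). By edgeR and by DESeq2, 1 Polycomb and Trithorax gene was called higher and no gene of the other lists. Without KahΔZnF replicate 1 or KahΔATG replicate 1, 2 trachea genes were lower. An apoptosis gene was higher without KahΔZnF replicate 1, KahΔZnF replicate 2 or KahΔATG replicate 1, and a Polycomb and Trithorax gene without any 1 of the KahΔZnF replicates or without KahΔATG replicate 2. The estimates of all 13 glycolysis genes were below 0, with a median of -0.22. All 10 apoptosis genes were above 0, with a median of 0.32, and so were 18 of the 20 Polycomb and Trithorax genes, with a median of 0.23. At an unadjusted p under 0.05, 8 of the glycolysis genes, 6 of the apoptosis genes, 8 of the trachea genes, 6 of the septate junction genes, 4 of the salivary gland genes, 1 of the somatic muscle identity genes and 13 of the Polycomb and Trithorax genes differed, against 57.2% of all genes tested. On the mitochondrial genome 1 of 22 genes was higher and 1 lower, mt:tRNA:G and mt:srRNA. The higher call was lost without KahΔZnF replicate 2 or replicate 3, 2 genes were higher without KahΔZnF replicate 1, and the lower without KahΔZnF replicate 1 or KahΔATG replicate 2.

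The called genes were spread over the genome. Called shares were 17.7% on the X chromosome, 18.7% on 2L, 20.6% on 2R, 19.7% on 3L, 17.0% on 3R and 10.6% on chromosome 4, against 18.7% of all genes. Within 1 Mb of Kah on 3L, 29 of 156 genes other than Kah were called, or 18.6%, 14 of them higher and 15 lower.

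The w1118 libraries place these differences. Among the 1512 genes lower in KahΔZnF, the w1118 mean lay beyond KahΔATG for 1133 genes (74.9%), between the mutants for 286 and beyond KahΔZnF for 93. Among the 514 higher genes the counts were 334 (65.0%), 133 and 47. KahΔATG was also the mutant nearer to w1118 for 70.8% of all genes tested, with w1118 outside the mutants' range. By library, the median of the cuticle genes relative to the w1118 mean was -1.36 to -1.22 in KahΔZnF and -0.56 to -0.21 in KahΔATG on the log2 scale. For cell cycle and mitosis genes it was 1.45 to 1.56 in KahΔZnF and 0.84 to 1.08 in KahΔATG. For visceral mesoderm genes it was -0.03 to 0.06 and 0.00 to 0.05. The mutants thus stood on the same side of w1118 for cuticle and for cell cycle genes, with KahΔZnF farther out.

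**Figure D5:**
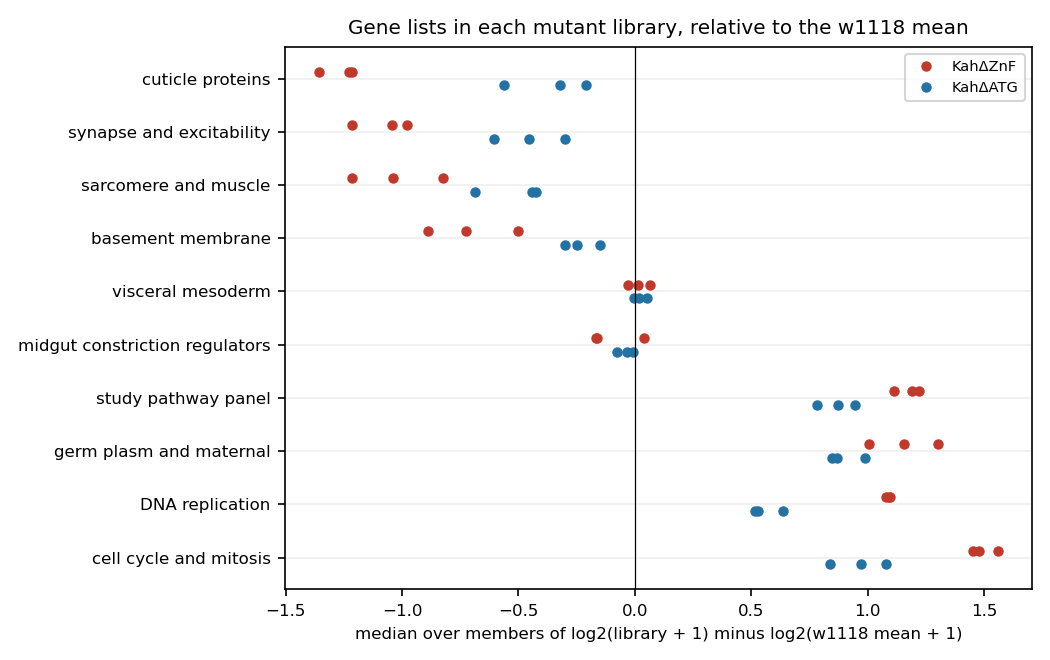
Median over the members of 10 gene lists (y axis) of log2(value + 1) in a mutant library minus log2(w1118 mean + 1) (x axis). Each point is 1 library, 3 of KahΔZnF in red and 3 of KahΔATG in blue. KahΔZnF is farther from 0 than KahΔATG for the groups at the top and the bottom, and both are at about 0 for visceral mesoderm and midgut constriction genes.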

How the data were processed

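RNA from whole embryos was sequenced by the authors, and the submitters' processing notes name HISAT2 2.0.5, featureCounts 1.5.0-p3 and DESeq2 1.20.0. The strand setting is not given in the sources used here, so reads of an overlapping gene may be counted. Beyond the overlaps named with the results, exons of Adh, Apc2, aurA, Cap-D2, CG8908, Ddc, DptB, Jon44E and Lasp overlap those of another annotated feature. The same holds for AGO3, CG30382, Fbp2, futsch, mRpS28, mRpS31, Msp300 and Nuf2. It also holds for Orc2, Orc5, Rpt3R, smt3, spo, Syt1, vret and zuc. For CR34335, Drs, Mcm3, Orc1, para, PPO1 and trol the overlap is unknown, as the annotation used does not hold them. The values the authors deposited are a signal, read counts per gene divided by a size factor per library, set separately in each of 2 tables that share the w1118 libraries. The deposited fold change and p-value columns were not used. Dividing by the value of 1 read returned whole reads (within 0.01) for 100% of values. The KahΔATG columns are headed by the gene name alone and were assigned because their table is that of KahΔATG against w1118. Reads were joined over both tables by gene identifier, and all 9 libraries were rescaled by median-of-ratios factors taken over the mutants. Replicates of a mutant differed by more than counting noise, so each library was kept as 1 sample. KahΔZnF replicate 1 stood apart most. Its chi-square per degree of freedom was 70.7 against KahΔZnF replicate 2 and 69.4 against replicate 3. The other pairs within a mutant had 5.38 to 8.98.

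Genes with at least 10 in at least 3 of the 6 mutant libraries were tested with limma 3.58.1 (trend, R 4.3.3) on log2(value + 1). Standard errors are limma's, and fold changes of low genes are understated on this scale. Adjusted p-values are Benjamini-Hochberg over all genes tested. The alternatives included edgeR 4.0.16 and DESeq2 1.42.0 on the recovered reads. On simulated counts for these 10838 genes, 200 of them changed, limma recovered 85% of genes changed by a log2 of 1 and 97% of those changed by 2, with 3 unchanged genes called. Python 3.11.15 with matplotlib 3.10.9 made the figures. Counting intervals are exact at 95%.

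Genes were named by rule: Kah, the 10 called genes with the largest change in each direction (separate libraries, mean of at least 50), up to 4 called members of largest change per list (any member of a list under 25), genes that the study labels, and genes at or under 3 reads in one mutant and at 50 or more in the other. Other members of counts of 5 or fewer, IM1 and IM2 were named after their values were seen. The gene lists and this rule were chosen with earlier results of these data known. Lists are described by counts and medians, with no test. Symbols are those of the files, and coordinates and exon overlaps come from the Ensembl BDGP6 annotation, which places 98.4% of the genes it matched at the files' coordinates.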

Additional observations from a re-analysis of the deposited data

Results flagged for a closer look

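For 6 of the genes with the largest differences, all 3 w1118 libraries lay between the libraries of the mutants, and the w1118 mean was away from both mutant means by a log2 difference of at least 0.59. The differences from w1118 were not tested against each other apart from the comparison of the mutants. CG10859 was the 1 of these with the higher level in KahΔZnF, with a log2 fold change of 2.50 against KahΔATG. The w1118 libraries had 43.0, 31.2 and 37.1 for CG10859. CG18607, the gene now named AANATL4, had a log2 fold change of -5.39. CG18607 was at 32.5, 20.2 and 28.5 in w1118. CG7860 had -3.18 and CG43349 had -3.01 on the same scale. For w1118 the values of CG7860 were 256, 241 and 202. In w1118 CG43349 was at 119, 146 and 155. CG31918 was at -2.59 and CG13060 at -2.58. The w1118 libraries had 126, 88.0 and 107 for CG31918. CG13060 was at 1507, 2735 and 2684 in w1118.

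The pseudogene CR43105 is listed in the KahΔZnF table and not in the KahΔATG table, so it entered no comparison. It had 202, 152 and 186 reads in the KahΔZnF libraries, a mean of 180.0, and 0 in w1118. A further 4 features listed in that table alone had 0 in w1118, and of these CG17005 had 33, 31 and 42 reads. No level in KahΔATG is given for them here.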

How the results depend on the processing

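The main counts were 514 higher and 1512 lower genes. They stayed within 1.5 times under the other tests (edgeR 528 and 1516, DESeq2 485 and 1453), scalings, filters and pseudocounts run, and the share of called genes that were higher ran from 19.7% to 32.0% over the scalings. Testing against a fold change of 1.5 left 80 and 238, and dropping the fold limit gave 2687 and 2819. Leaving out 1 library gave 422 to 629 higher and 1309 to 1662 lower genes, and 304 and 1051 of the genes called were called without each library in turn. No called gene among those named changed direction under the alternatives run. Among genes not called, estimates near 0 did change sign, such as that of IM2, at 0.03 in the main comparison, -0.05 by edgeR, -0.04 by DESeq2 and -0.40 without KahΔATG replicate 2, and that of IM1, at 0.17 and at -0.03 without KahΔATG replicate 2. The log2 fold change of Kah ran from -1.21 to -1.12 and it was called in all. Deviations of same-numbered libraries correlated at -0.087 to -0.023 across genes, and those of other pairs at -0.091 to 0.159. As deviations were taken from the mean of 3 libraries, the pairs are tied together. They cannot decide whether replicate numbers mark shared samples. A fit with the replicate number as a block gave 508 and 1496. With 1 collection per genotype and 3 libraries each, genes under about 20 reads, such as Drs and Drsl2, are limited most by depth.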

Other observations

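Several gene families were chosen after their values were seen, so their counts are descriptions. Some of their members were already counted in the lists above, among them the Tweedle genes and para. Their calls are therefore not separate from those given there. Of all genes tested 4.74% were higher and 14.0% lower. Among genes higher in KahΔZnF, 7 of the 8 augmin genes, whose complex nucleates microtubules within the spindle, were called, with a median log2 fold change of 0.68, and 4 were called without KahΔZnF replicate 3. Exons of msd1 and msd5 overlap each other, and dgt2, dgt4 and wac share exon sequence with other genes. The 7 are therefore not fully separate measurements. Levels of wac were 266, 194 and 234 in KahΔATG and 334, 468 and 527 in KahΔZnF. wac had a log2 fold change of 0.92 ± 0.17 (SE, adjusted p = 9.12e-04). Of 15 kinetochore and centromere genes 7 were higher, among them Nuf2. Of 12 centriole duplication genes 6 were higher. spd-2 was at 911, 976 and 995 in KahΔZnF and at 229, 173 and 189 in KahΔATG. For w1118 the values of spd-2 were 413, 424 and 344. For spd-2 the log2 fold change was 2.29 ± 0.11 (SE), with an adjusted p of 1.09e-07. The spd-2 product recruits pericentriolar material to centrosomes. Of 23 genes of the piRNA pathway, which silences transposons in the germ line, 10 were higher and 0 lower, and 6 were higher without KahΔATG replicate 3. vret encodes a Tudor domain protein and zuc the nuclease that shapes piRNAs. The values of vret were 294, 321 and 343 in KahΔZnF against 109, 159.6 and 112 in KahΔATG. By limma vret had a log2 fold change of 1.34 ± 0.15 (SE, adjusted p = 5.66e-05). KahΔZnF libraries had 509, 591 and 559 for zuc, and KahΔATG libraries had 332, 328 and 265.

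Members of several neuronal families were lower in KahΔZnF. All 9 genes of amine synthesis and transport tested were called lower, with a median log2 fold change of -0.89. In KahΔATG DAT was measured at 287, 359 and 322, and in KahΔZnF at 129, 133 and 126. This gave DAT a log2 fold change of -1.30 ± 0.12 (SE) at an adjusted p of 1.39e-05. DAT is the dopamine transporter and Tbh makes octopamine. Levels of Tbh were 175, 223 and 174 in KahΔATG and 79.6, 109.7 and 64.4 in KahΔZnF. Between the mutants Tbh differed by a log2 fold change of -1.19 ± 0.19 (SE, adjusted p = 4.80e-04). Of the 21 dpr genes, cell surface immunoglobulin proteins of neurons, 15 were lower and 0 higher, with a median of -0.73. Of 15 voltage-gated and related channel genes 10 were lower, and of 9 nicotinic acetylcholine receptor subunits 6 were lower. nAChRalpha6 was at 544, 486 and 384 in KahΔZnF and at 834, 1216 and 964 in KahΔATG. nAChRalpha6 had a log2 fold change of -1.09 ± 0.15 (SE, adjusted p = 1.60e-04). Of the 23 Tweedle cuticle genes 15 were lower.

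Detoxification enzymes were counted in the same way. Of 70 cytochrome P450 genes tested 20 were lower and 2 higher, against 14.0% and 4.74% of all genes. The values of Cyp6a18 were 29.9, 24.6 and 22.1 in KahΔZnF against 77.1, 84.5 and 78.6 in KahΔATG. For Cyp6a18 the log2 fold change was -1.62 ± 0.20 (SE), with an adjusted p of 9.05e-05. Cyp6a16 was 1 of the 2 that were higher. KahΔZnF libraries had 361, 385 and 375 for Cyp6a16, and KahΔATG libraries had 161, 134 and 142. By limma Cyp6a16 had a log2 fold change of 1.36 ± 0.11 (SE, adjusted p = 7.09e-06). Of 35 glutathione S-transferase genes 7 were lower and 1 higher, the latter lost without KahΔZnF replicate 3, KahΔATG replicate 1 or KahΔATG replicate 2. In KahΔATG GstE3 was measured at 4003, 3842 and 4004, and in KahΔZnF at 1053, 1001 and 1102. In w1118 GstE3 was at 882, 831 and 942. This gave GstE3 a log2 fold change of -1.91 ± 0.07 (SE) at an adjusted p of 1.35e-08. Of 30 UDP-glycosyltransferase genes 10 were lower and 1, Ugt37a1, higher, and 2 were higher without KahΔZnF replicate 2. Of 6 immune-induced genes 4 were lower, and 2 without KahΔZnF replicate 1. Levels of IM23 were 29.8, 21.9 and 36.3 in KahΔATG and 2.71, 13.3 and 3.02 in KahΔZnF. The gene pigs was chosen for its size of change. pigs was at 414, 343 and 301 in KahΔZnF and at 1735, 1845 and 1789 in KahΔATG. Between the mutants pigs differed by a log2 fold change of -2.35 ± 0.11 (SE, adjusted p = 7.40e-08).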
